A study of Mus musculus with 3 samples.

Results

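Atoh7 peaks that lie far inside long genes are described here, as 522 of the 3668 peaks of one CUT&RUN list from mouse retina. A peak was taken when its midpoint lay inside a protein-coding gene of 200 kb or longer and more than 5 kb from every end of a protein-coding or long noncoding RNA (lncRNA) gene, and such sequence is called deep. CUT&RUN releases the DNA next to an antibody-bound protein by tethered nuclease cutting. The study profiled C57Bl6/J retina at embryonic day 14 with 3 libraries, of which 2 used an Atoh7 antibody and 1 used IgG, and no mutant or treated group is used here. The deposited list gives each peak by its mm10 position and width, with no height, no score and no value per library. Read depth is therefore unknown, the spread between the Atoh7 libraries could not be computed, and the IgG library is not analysed here. Intervals are 95% intervals for the counting of peaks or genes alone, and no difference was tested. Intervals on peaks treat them as independent, although 321 of the 522 lay in long genes holding 2 or more. These intervals may therefore be too narrow.

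Atoh7 is a proneural basic helix-loop-helix (bHLH) factor of retinal progenitors that are becoming neurons, and it is needed for most retinal ganglion cells to form. Proteins of this family bind DNA as dimers with an E-protein at the E-box, written CANNTG. Enhancers of developmental genes often lie in introns, and the longest vertebrate genes include many that encode adhesion molecules, axon guidance receptors, channels and transcription factors of neurons.

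Some of these peaks sat on annotated start sites inside the host gene. RefSeq (GRCm38.p6, the assembly of mm10) lists 407 start sites within the deep sequence of long genes that have an entry in its start table, 368 of them starts of the host itself and 39 of another gene. A peak was centred within 1 kb of 9 of these starts, belonging to Ripor2, Magi1, Cntn4, Tmeff2, St7, Rps6ka2 and Sgip1, all as starts of their own host. The peak in Ripor2 was centred 5 bp from the start, and those in Magi1, a junction scaffold gene, were centred 9 and 45 bp from a pair of starts. The peak in Cntn4, a contactin adhesion gene, was centred 63 bp from one start and 240 bp from the next. To show what lies at such starts, the RefSeq bases that are both under the peak and within the 250 bases before the start are printed 5′ to 3′ on the strand of the gene, with every E-box in capitals. The 250 bases before the second Cntn4 start, partly the same as those shown, were read but are not printed. No other sequence under a deep peak was read here.
Tmeff2, chr1:50927273-50927522, plus strand: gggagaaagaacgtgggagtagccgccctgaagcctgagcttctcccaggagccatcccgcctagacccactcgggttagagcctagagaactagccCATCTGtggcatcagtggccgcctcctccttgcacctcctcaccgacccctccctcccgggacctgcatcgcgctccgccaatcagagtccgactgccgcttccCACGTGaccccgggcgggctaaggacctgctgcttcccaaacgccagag
Magi1 lower start, chr6:93912964-93913213, minus strand: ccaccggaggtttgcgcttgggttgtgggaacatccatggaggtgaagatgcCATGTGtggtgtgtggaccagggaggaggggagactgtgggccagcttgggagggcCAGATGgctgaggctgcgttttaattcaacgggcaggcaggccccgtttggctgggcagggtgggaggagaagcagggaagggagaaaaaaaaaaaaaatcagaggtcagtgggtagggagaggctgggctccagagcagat
Magi1 upper start, chr6:93913691-93913934, minus strand: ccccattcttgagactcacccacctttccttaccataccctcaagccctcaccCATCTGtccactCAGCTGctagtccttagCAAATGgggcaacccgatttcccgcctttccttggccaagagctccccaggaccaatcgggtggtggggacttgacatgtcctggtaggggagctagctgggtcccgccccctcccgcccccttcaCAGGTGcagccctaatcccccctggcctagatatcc
Cntn4, chr6:106118515-106118764, plus strand: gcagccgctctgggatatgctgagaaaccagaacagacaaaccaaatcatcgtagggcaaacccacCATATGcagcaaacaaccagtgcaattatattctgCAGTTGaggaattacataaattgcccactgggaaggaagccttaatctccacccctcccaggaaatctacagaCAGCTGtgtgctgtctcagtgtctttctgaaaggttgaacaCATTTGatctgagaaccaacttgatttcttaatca
Ripor2, chr13:24638429-24638647, plus strand: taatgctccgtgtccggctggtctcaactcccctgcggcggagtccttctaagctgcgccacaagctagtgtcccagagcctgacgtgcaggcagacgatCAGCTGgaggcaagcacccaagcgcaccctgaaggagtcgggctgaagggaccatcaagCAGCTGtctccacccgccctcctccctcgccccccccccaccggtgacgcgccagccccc
Rps6ka2, chr17:7169865-7170114, plus strand: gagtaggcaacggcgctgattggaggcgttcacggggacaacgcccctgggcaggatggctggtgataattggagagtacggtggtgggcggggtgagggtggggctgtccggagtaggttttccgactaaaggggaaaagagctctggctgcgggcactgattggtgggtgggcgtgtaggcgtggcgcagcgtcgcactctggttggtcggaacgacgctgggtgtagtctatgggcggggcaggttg

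The peaks shown lay at chr1:50927172-50927561 in Tmeff2, chr6:93912646-93913263 and chr6:93913537-93913934 in Magi1, chr6:106118412-106118993 in Cntn4, chr13:24638429-24638878 in Ripor2 and chr17:7169442-7170166 in Rps6ka2, a ribosomal S6 kinase gene. Tmeff2 encodes a transmembrane protein with follistatin-like domains. Of 7 start windows of 250 bases that these peaks overlapped, the windows of the 2 Cntn4 starts overlapping each other, 6 held an E-box and the Rps6ka2 window held none. Among all 32851 start windows of the table, 66.2% held an E-box. The form CAGCTG, which reads the same on both strands, was in 3 of the 7 windows and in 13.0% of all. The form CAGATG, read as CATCTG on the other strand, was in 3 of the 7 and in 14.4% of all. CATATG was in 1 of the 7 and in 3.46% of all, and CAGGTG or CACCTG was in 1 of the 7 and in 17.2% of all. A match describes the letters only, and binding to it was not measured. All of these forms are also counted among the E-boxes.

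The comparison of internal starts with other deep sequence was chosen after the data were seen. Within 1 kb of internal starts there were 8 deep peaks in 0.761 Mb of sequence, or 10.5 per Mb (4.54 to 20.7). The remaining deep sequence of all 744 long genes matched in the start table held 404 peaks in 299.8 Mb, or 1.35 per Mb (1.22 to 1.49). The internal starts lay in 269 of the 744, so the comparison is not confined to genes that have them. The ratio of the densities was 7.81 (3.35 to 15.5). Within 500 bp the density was 18.1 per Mb (7.29 to 37.4), from 7 peaks, and between 0.5 and 1 kb it was 2.67 per Mb, from 1 peak. Thus 404 of 412 peaks in the 744 genes lay more than 1 kb from any listed internal start.

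**Figure D1:**
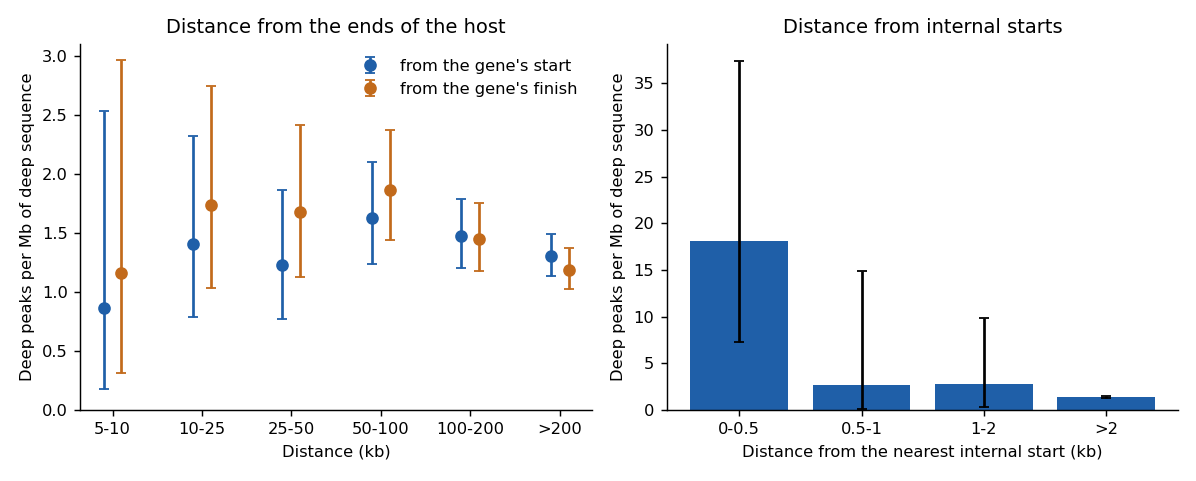
Deep peaks per Mb of deep sequence, with 95% Poisson intervals, in long genes with a listed start. Left, by distance from the start and from the finish of the host gene (kb). Right, by distance from the nearest internal start (kb), where the bar for 0 to 0.5 kb (18.1 per Mb) stands above the bar for more than 2 kb (1.34 per Mb).

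By position along the host gene, peaks lay near the start about as often as near the finish. The strand of the host was known from the start table for 412 of the 522 peaks, and 201 of these (48.8%, 44.0 to 53.6%) lay nearer the start than the finish. With the wider 50% of all peaks this share was 40.3% (33.8 to 47.2%). With each gene cut into 10 equal parts, a part held between 32 and 51 peaks. The part at the start held 32 and the part at the finish 42, and both lose sequence to the rule on gene ends. The median distance from the start of the host was 201 kb (quartiles 106 and 349 kb), and 314 of the 412 peaks lay more than 100 kb from it. Most deep sequence of these genes also lies that far from the start, with 70.6 Mb at 100 to 200 kb and 162 Mb beyond 200 kb. By distance from the start, density ranged from 0.867 per Mb (0.179 to 2.53) at 5 to 10 kb, from 3 peaks, to 1.63 per Mb (1.23 to 2.10) at 50 to 100 kb. From the finish it was 1.86 per Mb (1.44 to 2.37) at 50 to 100 kb and 1.19 per Mb (1.03 to 1.37) beyond 200 kb.

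The distance to the nearest end of any protein-coding or lncRNA gene had a median of 55.3 kb, and 153 of 522 peaks were more than 100 kb from one. The share of deep sequence that lies so far from an end was not computed. The most remote peak lay in Macrod2, an ADP-ribose hydrolase gene, at 778 kb from the nearest end (chr2:141449167-141449624). Next came peaks in Ccser1 at 548 kb, Naaladl2 at 539 kb, Cntnap2, a neurexin-family adhesion gene, at 502 kb, and Cntn4 at 441 kb. The Cntn4 peak was thus both remote from gene ends and 63 bp from an internal start. An annotated gene that is not protein-coding was overlapped by 16 peaks, 15 of them a lncRNA gene, such as Peak1os in Peak1 and Gm34538 in Pknox2, and 1 a pseudogene in Tspear. The rule on lncRNA ends keeps peaks over short lncRNA genes out of this count.

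Deep sequence of long genes was neither the densest nor the poorest part of the genome in Atoh7 peaks. It held 1.34 peaks per Mb (1.23 to 1.46) over 389.8 Mb. Deep sequence of shorter protein-coding genes held 1.61 per Mb (1.49 to 1.74), so that the ratio of long to shorter genes was 0.830 (0.739 to 0.932). Sequence within 5 kb of a gene end held 3.16 per Mb, a ratio of 0.424 (0.383 to 0.468). Against sequence between genes, 5 to 100 kb out, the ratio was 1.55 (1.37 to 1.76), and against sequence more than 100 kb from any protein-coding gene it was 2.51 (2.19 to 2.88). In all, the 522 peaks made up 14.3% (13.2 to 15.4%) of 3662 peaks, counting the autosomes and the X chromosome. Gaps in the assembly were not removed from these lengths, which lowers density where gaps lie.

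Density was lowest in the longest genes. Genes of 200 to 300 kb held 1.60 deep peaks per Mb (1.36 to 1.88) and genes of 300 to 400 kb held 1.83 (1.52 to 2.19), near the 1.75 (1.56 to 1.97) of genes of 100 to 200 kb. Of the 119 deep peaks in genes of 300 to 400 kb, 23 lay in Gse1 alone. Without Gse1 the density over all long genes was 1.28 per Mb (1.17 to 1.40). Genes of 600 to 1000 kb held 1.02 per Mb (0.794 to 1.30), and genes of 1000 kb or longer held 0.939 (0.735 to 1.18). The share of genes with a peak ran the other way, from 105 of 433 genes (24.2%) at 200 to 300 kb to 33 of 59 (55.9%) at 1000 kb or longer, beside 32% of all long genes.

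**Figure D2:**
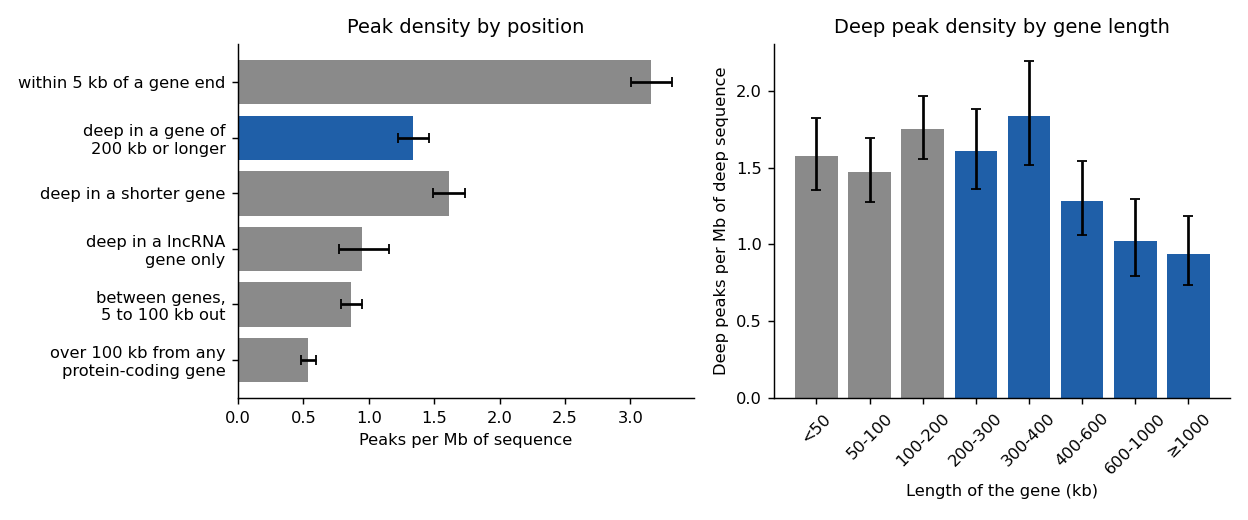
Peaks per Mb of sequence with 95% Poisson intervals. Left, by position class, with deep sequence of long genes in blue at 1.34 per Mb. Right, deep peaks by the length of the gene (kb), long genes in blue, falling from 1.83 per Mb at 300 to 400 kb to 0.939 per Mb at 1000 kb or longer.

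Of the 989 protein-coding genes of 200 kb or longer, 316 held at least 1 deep peak, which is 32% of them. Among these hosts 202 held 1 peak, 68 held 2, 29 held 3 and 17 held 4 or more, so that 114 of 316 hosts (36.1%, 31.0 to 41.5%) held several. One peak lay in a pair of overlapping genes, Schip1 and its read-through gene Iqschfp, and counts for both. Gene length and number of peaks were weakly related across the 989 genes (Pearson r = 0.17, Spearman rho = 0.19, a description across genes that share one peak list). At the 200 kb limit, the shortest host was Pcbp3 (200.3 kb, 1 peak of 395 bp), and the longest gene just outside with a deep peak was Atp9b (199.9 kb, 293 bp). At the 5 kb limit, the peak just inside lay in Adarb2, 5.11 kb from an end (184 bp), and the one just outside in Grm5 at 4.93 kb (197 bp). A further 88 peaks in long genes lay within 5 kb of a gene end.

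**Figure D3:**
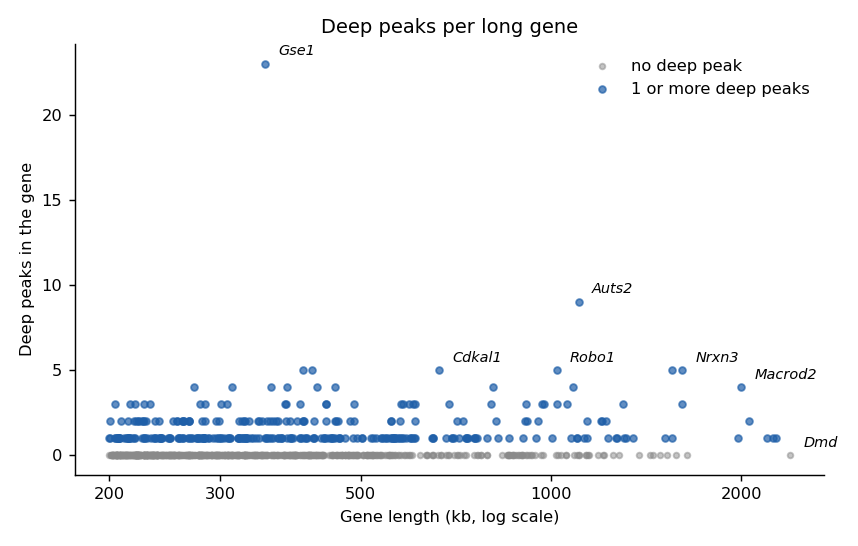
Number of deep peaks in each of the 989 long genes against gene length (kb, log scale), 1 point per gene. Gse1 stands apart with 23 peaks, Auts2 follows with 9, and Dmd, the longest gene, has 0.

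Gse1 held the most deep peaks of the 989 genes. Gse1 encodes a coiled-coil protein found in histone deacetylase and demethylase complexes. The gene (chr8:120228501-120581383, plus strand, 353 kb) held 23 deep peaks in 293 kb of deep sequence, or 78.6 per Mb (49.8 to 118), and 3 more peaks in it lay within 5 kb of a gene end. Its deep peaks fell into 3 runs, separated by gaps of more than 50 kb. The first run had 8 peaks between 37.2 and 80.9 kb from the start, the second 8 between 153 and 211 kb, and the last 7 between 277 and 337 kb. Neighbouring midpoints were a median of 6.40 kb apart (0.562 to 71.8 kb), and 15 of the 23 lay within 5 kb of another peak. Their widths ran from 177 to 730 bp with a median of 395 bp, against a median of 377.5 bp over all 522. Of the running numbers in peak names between the first and the last of them, 24 of 32 (75%, 57.9 to 86.7%) were in the list, against 51.1% of the numbers over the whole list. The numbers present include those of its own deep peaks, and Gse1 was picked as the host with the most listed peaks. A high share is therefore partly set by that choice.

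Auts2, a neurodevelopmental gene whose product associates with Polycomb complexes, held 9 deep peaks over 1106 kb (8.31 per Mb, 3.80 to 15.8). Of these, 5 lay within chr5:131584592-131659240, the closest pair being 4.82 kb apart. Setbp1, which encodes a DNA-binding partner of the SET protein, held 4. These belong to a list of chromatin regulators and co-repressors, in which 8 of 15 long genes held a peak (53.3%, 30.1 to 75.2%), an interval that includes the 32% of all long genes. The other holders were Zmiz1 and Chd9 with 2 each and Baz2b, Arid1b and Mbd5 with 1 each. The list held 8.27 peaks per Mb with Gse1 and 4.08 (2.49 to 6.29) without it, against 1.33 (1.22 to 1.45) over all 989 genes, where a peak in overlapping genes counts for each.

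**Figure D4:**
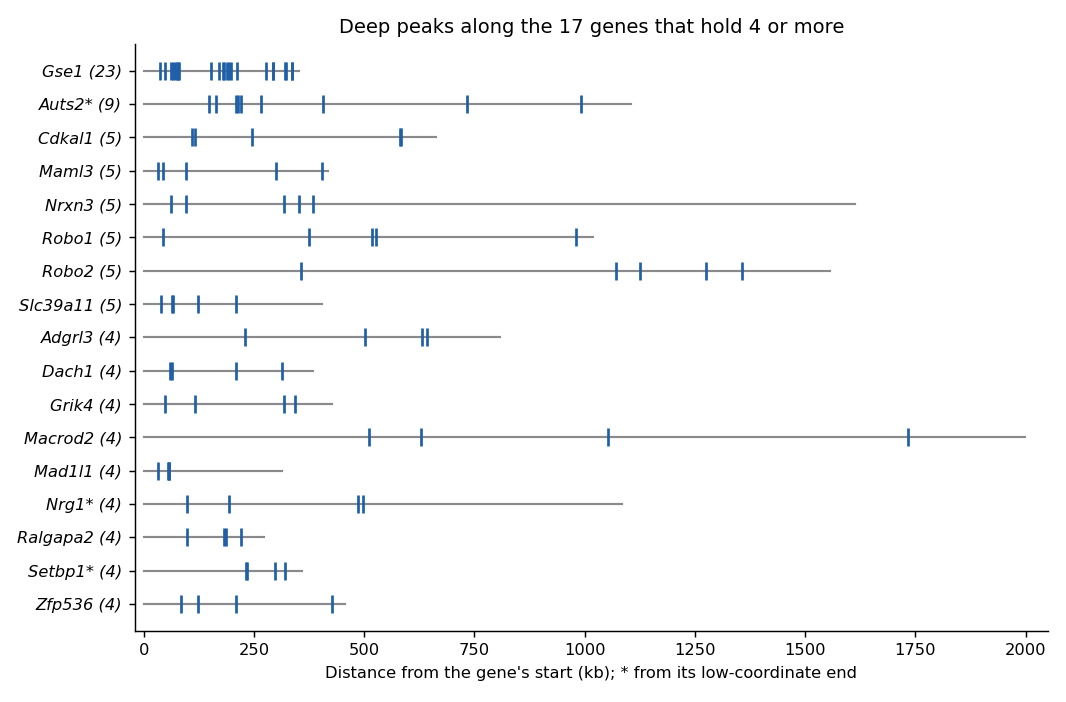
Positions of deep peaks (blue ticks) along the 17 long genes (grey lines) that hold 4 or more, as distance from the gene's start in kb, or from its low-coordinate end for genes marked with an asterisk. Numbers in brackets are peaks per gene, and the 23 ticks of Gse1 fall into 3 runs.

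Axon guidance genes steer growing axons, such as those of ganglion cells. A peak lay in 10 of their 19 long members (52.6%, 31.7 to 72.7%), an interval that includes the 32% of all long genes. The Slit receptor genes Robo1 and Robo2 held 5 peaks each. In Robo1 they were spread from 44.6 to 980 kb from the start. In Robo2 (chr16:73891976-75447443, minus strand) 4 of 5 lay between 1072 and 1357 kb from the start and the other at 358 kb. Efna5, an ephrin ligand gene, held 3 peaks between 27.9 and 53.6 kb from its start. Unc5c, a netrin receptor gene, held 2, among them the widest of all 522 peaks (1066 bp, chr3:141814322-141815387), which lay 349 kb from the start of the gene. Epha5 held 2, and Epha3, Ntng1, Plxna4, Sema6d and the netrin receptor gene Dcc held 1 each.

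Transcription factor genes were taken as a list made from symbol patterns. A peak lay in 25 of their 52 long members (48.1%, 35.1 to 61.3%), beside 32% of all long genes. The list held 2.03 peaks per Mb (1.45 to 2.76), against 1.33 (1.22 to 1.45) over all 989 long genes. The list is not complete, and the hosts Zfp536, Tead1, Foxn3 and Pknox2 are not in it. Dach1, a transcriptional co-factor of the retinal determination network, held 4 peaks between 60.7 and 314 kb from its start. Zfp423, a zinc finger gene, Thrb, the thyroid hormone receptor gene needed for M-cones, Tshz2 and Camta1 held 3 each. Tcf12 and Tcf4, which encode E-proteins, the dimer partners of bHLH factors, held 2 each, as did Gli2, a Hedgehog effector gene, and Sox5. Among members of 200 to 400 kb the share was 33.3% (10 of 30), beside 26.5% of all genes of that length. At 400 kb or longer it was 68.2% (15 of 22), beside 41.9%. Neither difference was tested.

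Cell adhesion genes held a peak in 25 of 59 long members (42.4%, 30.6 to 55.1%), an interval that includes the 32% of all long genes, and 0.998 peaks per Mb (0.731 to 1.33), against 1.33 over all of them. Their median length was 740 kb against 324 kb for all long genes. At 200 to 400 kb their share was lower than that of all genes of that length (3 of 16, 18.8% against 26.5%), and at 400 kb or longer it was higher (51.2% against 41.9%). Nrxn3, a presynaptic neurexin gene, held 5 peaks, all within 384 kb of its start although the gene spans 1612 kb. Dscam, Ptprg, Nlgn1, the postsynaptic partner of neurexins, Ntm, Sdk1, Cntn4 and Tenm3 held 3 each. Genes of the cytoskeleton and its regulators held a peak in 30 of 66 (45.5%, 34.0 to 57.4%), beside 32% of all long genes. They were led by Kif16b, a kinesin gene, Dst, Ank2, Magi1 and Kalrn, with 3 each. Dst, a giant cytoskeletal linker gene, carried a peak of 863 bp. RNA-binding regulators held a peak in 4 of 10 (40%, 16.8 to 68.7%), beside the same 32%, and did so in 3 of 4 genes of 200 to 400 kb and in 1 of 6 longer ones. There were 3 in Msi2, a Musashi gene of progenitors, 2 in Rbfox3 and 1 each in Rbms1 and Celf4.

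Genes for electrical signalling had lower shares, a difference that was not tested. Voltage-gated and related channels held a peak in 6 of 27 long members (22.2%, 10.6 to 40.8%), with 2 peaks each in Kcnd3, Cacna2d1, Cacna1c and Cacna2d3. Transmitter receptors did so in 5 of 24 (20.8%, 9.24 to 40.5%), with 4 peaks in the kainate receptor gene Grik4, 2 in the metabotropic receptor gene Grm3 and 1 in Gabbr2. Both intervals include the 32% of all long genes. Developmental signalling genes held a peak in 4 of 16 (25%, 10.2 to 49.5%), an interval that also includes that 32%. Maml3, a Notch co-activator gene, held 5 of their 11 peaks (12.7 per Mb, 4.13 to 29.7) and Nrg1, the neuregulin gene, 4, while Ntrk3 and Erbb4 held 1 each. The list was made from symbol patterns and includes Fgf12, Fgf13 and Fgf14, which held no peak and may not belong to it by function.

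Muscle and extracellular matrix genes had the lowest share of the 11 lists when all peaks were used. With the wider 50% of peaks their share was 4.76%, and that of transmitter receptors, at 4.17%, was lower. A peak lay in 4 of 42 long members (9.52%, 3.77 to 22.1%), Spock1 with 3 and Fras1, Thsd7a and Thsd7b with 1 each, at 0.323 peaks per Mb (0.118 to 0.703). Of their members of 200 to 400 kb, 0 of 24 held a peak, which allows a share of up to 12.5%, beside 26.5% of all genes of that length, and of the longer ones 4 of 18 did (22.2% against 41.9%). On the autosomes alone the share was 4 of 38 (10.5%), beside 33.1% of all long genes there. Blood, immune and vascular genes held a peak in 3 of 14 (21.4%, 7.57 to 47.6%), an interval that includes the 32% of all long genes. Their peaks were 2 in Abcc4 and 1 each in Prkcb and Dock2. The symbol patterns of this list also took in Il1rapl1, Il1rapl2 and Lrmda, which held no peak and may not belong to it by function. Dock2 was among 4 genes that stood in more than 1 list. The lists were set up with earlier results of these data known, and a list's share depends on how long its genes are.

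**Figure D5:**
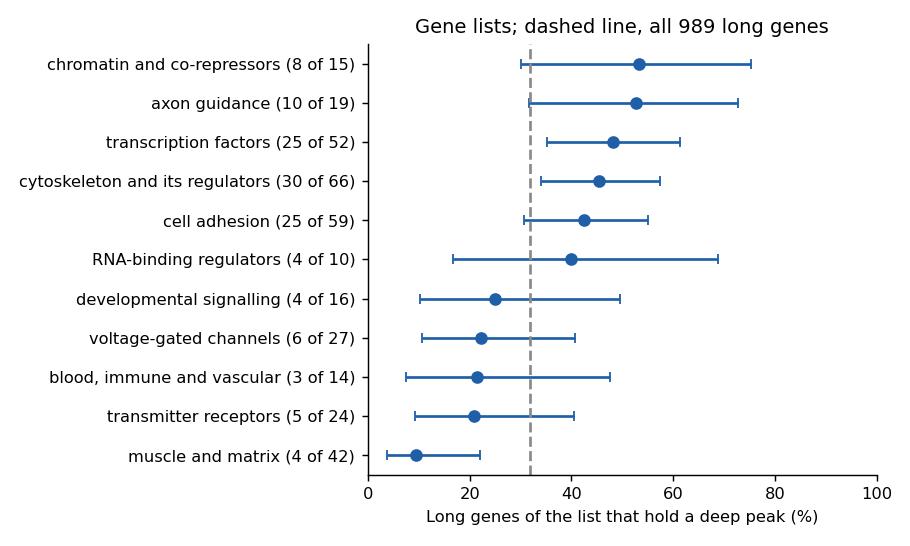
Share (%) of the long genes in each of 11 lists that hold a deep peak, with 95% Wilson intervals and the counts in brackets. The dashed line marks all 989 long genes at 32%, and muscle and matrix genes lie lowest at 9.52%.

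Many hosts belonged to no list. Of 649 long genes outside the lists, 193 (29.7%, 26.3 to 33.4%) held a peak. Cdkal1, a tRNA-modifying enzyme gene, and Slc39a11, a zinc transporter gene, held 5 each. Adgrl3, a latrophilin adhesion receptor gene, Macrod2, Mad1l1, a spindle checkpoint gene, Ralgapa2, a regulator of Ral GTPases, and Zfp536, a zinc finger gene, held 4 each. Those with 3 were Fhit, Agap1, Clvs1, Cracd, Frmd4a, Gsg1l, Igsf21, Ripor2 and Tead1, the last a partner of the Hippo co-activator Yap. In Mad1l1 all 4 peaks lay between 31.8 and 57.3 kb from the start of a gene of 313 kb, the closest pair 412 bp apart. In Slc39a11 the 5 peaks lay between 38.4 and 210 kb from the start of a gene of 405 kb.

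The longest genes without a peak were Dmd (2390 kb), the muscular dystrophy gene, Csmd1 (1643 kb), Ctnna3 (1574 kb), an alpha-catenin gene, Rbfox1 (1528 kb), a splicing factor gene, and Magi2 (1485 kb). A count of 0 allows up to 3 counts, which for Dmd is a density of up to 1.28 per Mb and for Magi2 up to 2.15 per Mb. By the exact Poisson interval used for the other densities, the limit for Dmd is 1.58 per Mb. Dmd lies on the X chromosome, where all deep long-gene sequence held 0.208 per Mb (0.0568 to 0.533). Of the 10 longest genes, 8 held a peak, with 1 each in Ptprd, Cntnap2, Lsamp and Dlg2, 2 in Lrp1b, 3 in Fhit, 4 in Macrod2 and 5 in Nrxn3.

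By width and spacing, these peaks were set beside those at other positions. The median width was 377.5 bp (359 to 394 bp) for deep peaks of long genes and 385.5 bp (366 to 400 bp) for those of shorter genes. Besides that of Unc5c, wide peaks lay in Fars2 (923 bp), Cdkal1 (868 bp) and Dst (863 bp). Peaks of 825 to 795 bp followed in Peak1, Ppp3ca, which encodes a calcineurin catalytic subunit, Foxn3, a forkhead gene, Schip1 and Gpm6a, a neuronal membrane glycoprotein gene. Another peak lay within 5 kb of 66 of the 522 (12.6%, 10.1 to 15.8%), against 10.9% (8.78 to 13.5%) in shorter genes, and outside Gse1 this was 10.2% (7.86 to 13.2%). The share was 7.12% (4.87 to 10.3%) for peaks more than 100 kb from any protein-coding gene and 18.2% (11.8 to 26.9%) for those deep in lncRNA genes only. No other peak lay within 100 kb of 275 of the 522, a count that was not made for peaks at other positions.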

How the data were processed

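CUT&RUN libraries of mouse retina were processed by the authors on mm10. The submitters' processing notes name MACS2 2.2.7.1, bedtools, Bowtie2 2.3.5, Picard 2.0.1 and SAMtools. Order, settings, any use of the second Atoh7 library or of IgG, and the step that left 3668 of 7185 running peak numbers are not given in the sources used here. The deposited table holds positions and widths, per the file headers, and every name begins with Atoh7_R1. Positions were taken as bp counted from 1, since each width equals end minus start plus 1.

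RefSeq genes of GRCm38.p6 gave the gene ends. Strand and start sites came from a RefSeq start table, which matched 744 of the 989 long genes. Densities are peaks divided by the sequence of each class between the first and last gene or peak of a chromosome. Intervals are exact Poisson for densities, conditional binomial for their ratios, Wilson for shares and order statistics for medians. No chance test was run.

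The peaks and lists were chosen with earlier results of these data known. Named genes were hosts with 3 or more peaks, hosts of the 10 widest and 5 most remote peaks, up to 3 leading hosts per list, the 5 longest genes without a peak, and those at the limits of the rule or with a sequence or embedded gene described. Any other gene was named with its values in view, and a few that the rule selects are not reported here. Lists were families defined by symbol patterns. The scripts were tested on simulated peaks. The software was matplotlib 3.10.9, scipy 1.17.1, pandas 2.3.3 and numpy 2.4.6 under Python 3.11.15.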

Additional observations from a re-analysis of the deposited data

How the results depend on the processing

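Alternatives were gene lengths of 150 and 300 kb, end distances of 2 and 10 kb, ends of genes of every type, whole peaks inside, the wider 50% of peaks, no Gse1, and spacing of 2 and 20 kb. The whole comparison of internal starts with other deep sequence, at 1 kb and in every other window, its ratio without Magi1, and autosomes alone were added after the data were seen. Of 175 alternative values, 156 stayed within the interval of the reported value, or within 1.5 times a count, and 19 did not. With the wider 50% of peaks there were 256 peaks in 181 hosts (18.3% of long genes) at 0.657 per Mb, with a median width of 474 bp, fewer peaks and greater width being set by that choice. There, 40.3% lay nearer the start, 27.1% of hosts held several peaks and 7.03% of peaks had another within 5 kb. Within 2 kb of another peak lay 7.09%, and within 20 kb 24.5%. The share of long genes with a peak was 27.6% at 150 kb and 37.9% at 300 kb. At internal starts the ratio was 13.4 within 0.5 kb, 4.97 within 2 kb and 5.85 without Magi1. In the reported setting and all 8 alternatives that recompute the lists, muscle and matrix genes stayed below the share of all long genes (4.76 to 16.7%), and axon guidance, transcription factor, adhesion, cytoskeleton and chromatin genes stayed above it. These settings do not match lists on gene length. With the wider 50% of peaks the transmitter receptor share moved from 20.8 to 4.17%. RNA-binding regulators were above it in 8 of these 9 settings and developmental signalling genes in 1. Depth per library is unknown and limits every statement on absence.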

Other observations

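On the X chromosome, 4 deep peaks lay in 19.2 Mb of deep long-gene sequence, or 0.208 per Mb (0.0568 to 0.533), against 1.40 per Mb (1.28 to 1.52) on the autosomes. X density was also lower in every other class of position: 1.10 against 3.24 per Mb within 5 kb of gene ends, 0.163 against 1.68 deep in shorter genes, 0.109 against 0.947 between genes, 0.0536 against 0.579 beyond 100 kb from protein-coding genes, and 0 peaks in 3.20 Mb of lncRNA gene bodies, with an exact upper limit of 1.15 per Mb, against 0.976 per Mb on the autosomes. The cause was not tested. Chromosome 15 had 8 deep peaks in 16.2 Mb (0.493 per Mb, 0.213 to 0.972), and chromosome 8 had 48 in 21.1 Mb (2.27 per Mb, 1.68 to 3.01). Of those 48, 23 lay in Gse1 alone. Chromosome 5 had 53 in 23.8 Mb (2.23 per Mb, 1.67 to 2.92), in 26 hosts.

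Tspear, a gene of 201 kb that is mostly close to the ends of other genes, had 2 peaks 385 bp apart in only 22.6 kb of deep sequence, 1 of them over the pseudogene Gm18596. Pairs of midpoints under 400 bp apart also lay in Ppp1r9a (293 bp), Ndst4 (304 bp) and Grm3 (389 bp). These genes were singled out after their values were seen.

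In 70 hosts, running numbers fell between those of the first and the last deep peak. Of these intervening numbers, 100 of 203 were in the list (49.3%, 42.5 to 56.1%), and without Gse1 76 of 171 (44.4%, 37.2 to 51.9%). The numbers present include those of the hosts' own deep peaks, so these shares are partly set by the choice of hosts. The value over the whole list was 51.1%.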
